A study of Homo sapiens with 12 samples.

Results

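The genes described here were the well-counted long non-coding RNAs (lncRNAs) of Huh7 cells, a human hepatocellular carcinoma line. They were the rows of the count files typed lncRNA that held at least 10 counts in each of 11 of the 12 libraries. The rule reads counts only and leaves out DMSO 48 h replicate 2. It was set with earlier results of these data known. This rule took 313 of 16880 lncRNA rows, out of 60666 genes listed. The same count rule took 8602 protein-coding genes, which served as the comparison. The rule used the level of each gene, so the level itself is a description. The rule did not use any difference between groups.

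Huh7 cells had been cultured with 25 µM Molidustat, an inhibitor of the prolyl hydroxylases that mark hypoxia-inducible factors for destruction, or with its solvent DMSO alone, for 24 h or 48 h. The 4 groups are called DMSO 24 h, Molidustat 24 h, DMSO 48 h and Molidustat 48 h, with 3 libraries each, described in the methods of the study as biological replicates. All came from 1 cell line, so the p-values below measure only the spread between cultures of that line. RNA was counted per gene from 3′ libraries, and the question of the design was which genes differed between Molidustat and DMSO at each time.

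LncRNAs are transcripts without a long reading frame. Many start beside the promoter of a coding gene and run away from it (divergent transcripts, named -DT), many lie opposite a coding gene (antisense transcripts, named -AS), and others carry small nucleolar RNAs or microRNAs in their introns or exons (host genes). Some stay in the nucleus, where MALAT1 sits in nuclear speckles and NEAT1 holds paraspeckles together. Under low oxygen or prolyl hydroxylase inhibition, hypoxia-inducible factors bind the core letters ACGTG or GCGTG in the promoters and enhancers of their target genes, and lncRNA genes such as MIR210HG, the host of the microRNA miR-210, are among them.

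By their labels the libraries were those of Huh7 cells, and known hypoxia targets were higher with Molidustat. All 9 hepatoma markers looked at (among them ALB, AFP and APOA1) passed the filter on low counts. Their median log2 fold change with Molidustat was 0.53 at 24 h and 1.13 at 48 h (0.70 without DMSO 48 h replicate 2). At an unadjusted edgeR p under 0.05, 2 of the 9 were higher and 0 lower at 24 h. The background was 3.73% and 1.52% of all genes tested. At 48 h 6 were higher and 1 lower, against 4.53% and 8.81%. Without DMSO 48 h replicate 2, 4 were higher and 0 lower at 24 h (6.12% and 2.87%). At 48 h without it, 5 were higher and 1 lower (3.7% and 3.01%). None reached an adjusted p under 0.05 with a log2 fold change beyond 1 over all libraries. Without that library 2 did at each time, all higher, against 0.778% and 0.336%. Of 8 markers of other cell types, 4 passed the low-count filter, and the macrophage marker CD68 held 2 to 23 counts per library. The levels of the others that passed are not given here. Passing the filter therefore does not tell cell types apart, and the identity of the cells rests on the labels. The hypoxia target BNIP3, a mitophagy receptor, was higher with Molidustat by 2.81 on the log2 scale at 24 h and by 2.68 at 48 h (edgeR quasi-likelihood test, Benjamini-Hochberg adjusted p = 0.000977 and 0.00149). EPO, the gene of erythropoietin, held 0 counts in every DMSO 24 h library and 38, 341 and 85 in the Molidustat 24 h libraries.

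A single library stood apart from the other 11. DMSO 48 h replicate 2 held 1499273 gene counts, where the other 11 held 2312396 to 9179389. LncRNAs took 4.23% of its gene counts (95% Wilson interval 4.19 to 4.26, which covers counting error only), against 1.87 to 2.45% in the other 11 libraries (mean 2.19%). The 313 lncRNAs took 3.36% of it and 1.39 to 1.92% of the others. Fragments that fell on no gene made up 54.3% of its fragments on a gene, on no gene or on several genes, against 19 to 28.5% in the others. Mitochondrial genes took 0.969% of its gene counts, against 1.46 to 3.80%. The part that these shares play in the results below was not tested. The main counts and medians at 48 h are given with and without this library.

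**Figure D1:**
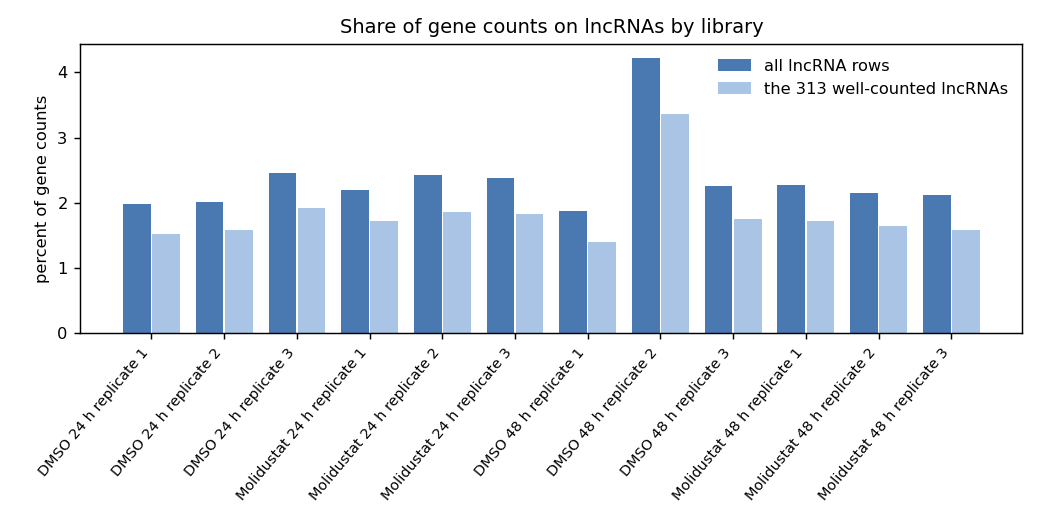
Share of all gene counts (percent, vertical axis) that fell on lncRNAs in each of the 12 libraries, with the share on the 313 well-counted lncRNAs. DMSO 48 h replicate 2 stands at 4.23% and 3.36%, above the other 11 libraries, whose lncRNA shares lie between 1.87 and 2.45%.

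Of the 313 lncRNAs, 233 also held at least 10 counts in DMSO 48 h replicate 2, 80 held fewer and 16 held 0. Just inside the rule were ENSG00000287851 and ENSG00000278834, whose lowest count over the 11 libraries was 10. Just outside were MRPL20-AS1 and ENSG00000226824, with a lowest count of 9. Because the rule asks for counts in both treatments, a lncRNA that was silent in one of them could not enter. At least 10 counts in all Molidustat libraries, but not in all DMSO libraries used, were held by 67 lncRNAs, and the reverse by 134. These counts are not on equal terms. The DMSO side leaves out DMSO 48 h replicate 2. The Molidustat side uses all its libraries, among them the smallest of the 11, Molidustat 48 h replicate 2 (2312396 gene counts).

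Counts were concentrated on a few genes. They come from 3′ ends and are not scaled by length. The 10 lncRNAs with the most counts held a median of 47.2% of the counts of all 313 in the 11 libraries (39.9 to 50.6%), and the 50 with the most held 71.6%. MALAT1 alone held 6.25 to 13.8% of them in the 11 libraries and 2.43% in DMSO 48 h replicate 2. Several of the others lay inside coding genes. Among the 10 with the highest mean level, ENSG00000240801 lay within IGF2 (a fetal growth factor), ENSG00000264772 over EIF4A1 (a translation helicase), ENSG00000265257 over NDUFV2 (a subunit of respiratory complex I), ENSG00000230551 over CSNK1A1 (a casein kinase), ENSG00000261604 opposite HMGCS1 (an enzyme of cholesterol synthesis) and ENSG00000267458 opposite CALR (a chaperone of the endoplasmic reticulum). The remaining ones were MALAT1 and the small nucleolar RNA hosts SNHG29, SNHG32 and SNHG16.

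Most of the 313 shared ground with a coding gene. In the GENCODE 44 annotation of GRCh38, which had a record for 312 of them, 221 overlapped the body of a protein-coding gene. Exons overlapped coding exons in 202, on the same strand in 63 and on the opposite strand in 155. A further 26 did not overlap a coding gene but started within 1 kb of one and ran the other way, 12 lay within 5 kb of one, and 53 lay more than 5 kb from any. All exon bases lay inside coding exons in 37, of which 24 were opposite the coding gene and 13 on its strand. Whether counting used the strand is not given in the sources used here, so for these genes reads of the lncRNA and of the coding gene cannot be told apart from the counts alone.

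The clearest difference among the 313 belonged to 1 lncRNA. ENSG00000287093, which has no gene symbol, lies on chr7:24778444-24795496, minus strand, in 3 exon blocks and 1044 bp downstream of OSBPL3, an oxysterol-binding protein gene on the same strand. In CPM, the TMM-scaled share of a library's counts, it was at 10.1, 9.63 and 13.8 in the DMSO 24 h libraries and at 84.3, 63.0 and 88.3 in the Molidustat 24 h libraries. At 48 h it was at 6.91, 9.58 and 10.0 with DMSO and at 63.8, 54.9 and 48.7 with Molidustat. Every Molidustat library was above every DMSO library, and DMSO 48 h replicate 2 sat with the other DMSO libraries.

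ENSG00000287093 was 6.96-fold higher with Molidustat at 24 h, a log2 fold change of 2.80 (SE 0.34, n = 3 against 3, edgeR quasi-likelihood test, Benjamini-Hochberg adjusted p = 0.000977). At 48 h it was 6.37-fold higher, a log2 fold change of 2.67 (SE 0.34, edgeR adjusted p = 0.00163). It passed the test at both times whichever library was left out, with log2 fold changes of 2.7 to 2.97 at 24 h and 2.50 to 2.83 at 48 h. When the DMSO 48 h and Molidustat 48 h groups were fitted alone, its edgeR adjusted p at 48 h was 0.0569. OSBPL3 did not pass the test: its log2 fold changes were -0.13 at 24 h and -1.53 at 48 h (edgeR adjusted p = 0.999 and 0.232), the 48 h value being -0.97 without DMSO 48 h replicate 2, and its exons do not overlap those of ENSG00000287093.

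**Figure D2:**
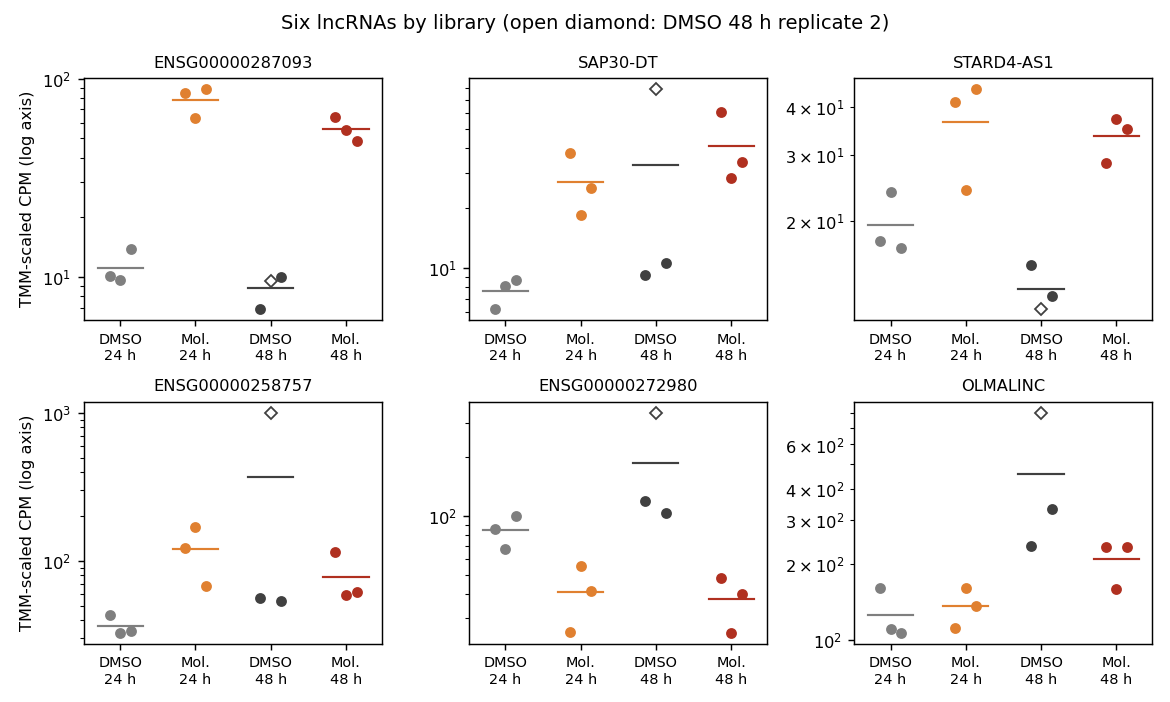
TMM-scaled CPM (log axis) of 6 well-counted lncRNAs in the 12 libraries, by group; points are libraries, lines are group means and the open diamond is DMSO 48 h replicate 2. ENSG00000287093, STARD4-AS1 and ENSG00000272980 show no overlap between Molidustat and DMSO at either time, and in SAP30-DT, ENSG00000258757 and OLMALINC the open diamond lies far above the other DMSO 48 h points.

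ENSG00000287093 was the only one of the 313 called at 24 h, where a call is an adjusted p under 0.05 with a log2 fold change beyond 1, over all 14274 genes tested. The background was 0.231% of all tested genes higher and 0.0% lower. No lncRNA of the 313 was called lower by edgeR at 24 h. At an unadjusted p under 0.05, 6 were higher and 2 lower (background 3.73% and 1.52%), and DESeq2 and limma-voom called 1 higher and 0 lower each. The background was 0.83% and 0.0772% with DESeq2, which gave an adjusted p to 305 of the 313, and 0.448% and 0.0% with limma-voom. The 313 had a median log2 fold change of 0.06 at 24 h, against 0.02 for all genes tested. The groups did not overlap for 16 higher and 13 lower lncRNAs, against 7.26% and 5.02% of all genes tested.

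Without DMSO 48 h replicate 2, whose spread enters the estimate shared by the 4 groups, 4 lncRNAs were called higher at 24 h and 0 lower, against a background of 0.778% and 0.035%. These were ENSG00000287093, SAP30-DT, ENSG00000258757 and ENSG00000240801. The unadjusted p was under 0.05 for 15 higher and 6 lower, against 6.12% and 2.87% of all genes, and DESeq2 without that library also called 4 higher and 0 lower (background 1.3% and 0.179%).

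SAP30-DT is the divergent transcript of SAP30, a subunit of the Sin3 histone deacetylase complex. It lies on chr4:173349543-173370721, minus strand, in 5 exon blocks, and shares 128 exon bases with SAP30. It was at 6.20, 8.09 and 8.68 CPM in the DMSO 24 h libraries and at 37.6, 18.3 and 25.2 in the Molidustat 24 h libraries. With DMSO 48 h it was at 9.22, 78.8 and 10.5, and with Molidustat 48 h at 60.4, 28.3 and 34.2. The 24 h groups did not overlap. At 48 h DMSO replicate 2 was the highest of all 12 libraries, and without it the groups did not overlap either.

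The 24 h log2 fold change of SAP30-DT was 1.81 over all libraries (SE 0.68, edgeR adjusted p = 0.757) and 1.82 without DMSO 48 h replicate 2 (edgeR adjusted p = 0.0387). At 48 h it was 0.44 over all libraries and 2.04 without that library (edgeR adjusted p = 0.065; DESeq2 adjusted p = 0.00101). SAP30 itself had log2 fold changes of 0.76 and 0.81 and was not called at either time. The ratio of SAP30-DT counts to SAP30 counts ranged from 0.166 to 1.98 over the 11 libraries, so the 2 did not keep a fixed proportion.

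Its promoter is shown because it carries the core letters bound by hypoxia-inducible factors. The window, from RefSeq on GRCh38.p14, runs from 250 bases before to 50 after the start and is written 5′ to 3′ along the gene. Capitals mark ACGTG or GCGTG, or their reverse complements CACGT or CACGC, and positions count from +1 at the first transcribed base. SAP30-DT has GCGTG at +19. STARD4-AS1, described below, has neither motif in its window. That window is set by the RefSeq start and lies inside the GENCODE span given for the gene below. The bases before the GENCODE start were not searched for the motifs.
SAP30-DT promoter, chr4:173370649-173370948, minus strand: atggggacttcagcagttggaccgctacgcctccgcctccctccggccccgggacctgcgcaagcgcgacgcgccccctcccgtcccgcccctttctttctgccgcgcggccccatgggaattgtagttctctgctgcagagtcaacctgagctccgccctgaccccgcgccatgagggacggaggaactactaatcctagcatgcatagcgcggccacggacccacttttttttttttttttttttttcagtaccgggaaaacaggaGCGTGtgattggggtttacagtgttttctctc
STARD4-AS1 promoter, chr5:111511976-111512275, plus strand: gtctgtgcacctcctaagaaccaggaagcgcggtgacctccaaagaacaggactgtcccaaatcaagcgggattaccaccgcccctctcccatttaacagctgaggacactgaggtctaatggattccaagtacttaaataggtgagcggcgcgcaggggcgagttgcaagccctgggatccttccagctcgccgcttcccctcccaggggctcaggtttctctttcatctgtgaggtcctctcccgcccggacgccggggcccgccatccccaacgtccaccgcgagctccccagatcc

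ENSG00000258757 lies on chr14:52640839-52641566, plus strand, opposite ERO1A, the gene of the oxidase that drives disulfide formation in the endoplasmic reticulum. All of its exon bases lie inside ERO1A exons. It was at 43.2, 32.7 and 33.5 CPM with DMSO and at 122, 169.9 and 68.3 with Molidustat at 24 h, a log2 fold change of 1.72 over all libraries (edgeR adjusted p = 0.955) and 1.73 without DMSO 48 h replicate 2 (edgeR adjusted p = 0.0169). At 48 h it was at 56.4, 999.7 and 53.9 with DMSO and at 115, 59.2 and 61.4 with Molidustat. The groups did not overlap at 24 h, and at 48 h the 999.7 of DMSO replicate 2 was the highest of the 12.

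ERO1A had similar values. Its 24 h log2 fold change was 1.93 over all libraries (edgeR adjusted p = 0.808) and 1.95 without DMSO 48 h replicate 2 (edgeR adjusted p = 0.00214). At 48 h ENSG00000258757 and ERO1A had -2.22 and -1.60 over all libraries. Without DMSO 48 h replicate 2 these were 0.50 and 0.72, so the sign turned for both. Neither passed the edgeR test at 48 h in either fit. The ratio of counts on ENSG00000258757 to counts on ERO1A stayed between 0.359 and 0.623 in the 11 libraries and was 0.710 in DMSO 48 h replicate 2, so both were high there together.

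ENSG00000240801 lies on chr11:2129121-2129964, minus strand, inside IGF2 and on its strand. Its CPM with DMSO and Molidustat at 24 h ranged from 592 to 896 and from 1256 to 2318, and the groups did not overlap. Its 24 h log2 fold change without DMSO 48 h replicate 2 was 1.18 (edgeR adjusted p = 0.0383), and that of IGF2 was 1.17 (edgeR adjusted p = 0.0384). Over all libraries they were 1.16 and 1.15, and neither passed. At 48 h the lncRNA and IGF2 had -0.78 and -0.62 over all libraries and 0.91 and 0.96 without DMSO 48 h replicate 2, so the sign turned for both, and neither passed the edgeR test in either fit. The ratio between their counts was 0.412 to 0.511 in the 11 libraries, so the counts of the lncRNA and of the growth factor gene stayed in nearly the same proportion.

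At 48 h, ENSG00000287093 was again the only call by edgeR, against a background of 0.21% of all tested genes higher and 0.021% lower. Without DMSO 48 h replicate 2 it was also the only one, against 0.336% and 0.035%. The count rose to 26 (25 lower) without DMSO 48 h replicate 1 and to 12 (11 lower) without replicate 3, where 1.82% and 1.02% of all genes were called lower, and in both DMSO 48 h then held replicate 2 and 1 other library. At an unadjusted p under 0.05, 16 lncRNAs were higher and 60 lower, which is 5.11% and 19.2% of the 313, against 4.53% and 8.81% of all genes tested. Without that library the counts were 14 and 8, against 3.7% and 3.01%. DESeq2 called 2 higher and 15 lower over all libraries, against 1.25% and 1.27% of the genes it tested. Without DMSO 48 h replicate 2 it called 2 higher and 2 lower, against 1.04% and 0.165%. Limma-voom with sample quality weights called 4 higher and 2 lower, against 1.71% and 0.238%.

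The lower side at 48 h came with DMSO 48 h replicate 2. The median log2 fold change of the 313 was -0.28 with that library and 0.09 without it, against 0.01 and 0.00 for all genes tested. With it, 75 lncRNAs lay below -1 and 24 above 1. Without it, 5 lay below -1 and 17 above 1. Scaling by total gene counts instead of TMM factors moved the median of all genes at 48 h to 0.13 and that of the 313 to -0.05.

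**Figure D3:**
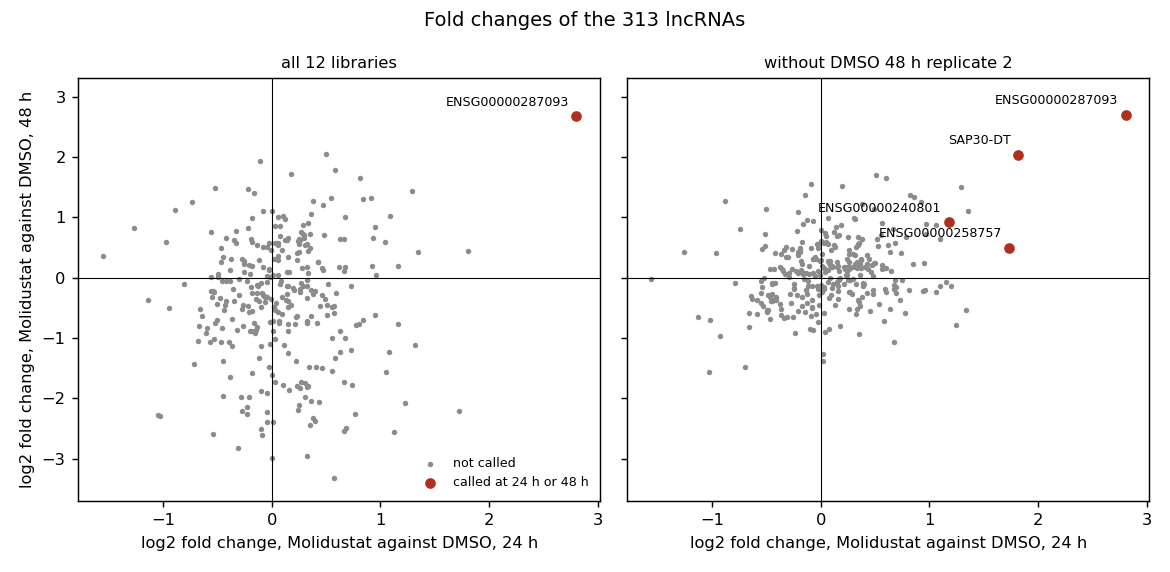
Log2 fold change of Molidustat against DMSO at 48 h (vertical axis) against that at 24 h (horizontal axis) for the 313 lncRNAs, over all 12 libraries and without DMSO 48 h replicate 2. ENSG00000287093 lies at 2.80 and 2.67 in the first panel; the cloud drops to a 48 h median of -0.28 with that library and lies at 0.09 without it.

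STARD4-AS1 lies opposite STARD4, a carrier of cholesterol between membranes, on chr5:111510396-111739726, plus strand. It was at 17.7, 23.9 and 16.9 CPM with DMSO and at 41.2, 24.2 and 44.6 with Molidustat at 24 h, and at 15.3, 11.7 and 12.7 with DMSO and 28.5, 37.3 and 35.1 with Molidustat at 48 h. The groups did not overlap at either time, though narrowly at 24 h, and DMSO 48 h replicate 2 was not apart. The log2 fold changes were 0.91 (SE 0.35) and 1.33 (SE 0.36), or 1.25 at 48 h without DMSO 48 h replicate 2, and neither passed the edgeR test (adjusted p = 0.804 and 0.191). DESeq2 gave an adjusted p of 0.0292 at 48 h, and of 0.0589 without DMSO 48 h replicate 2, so that call was lost. STARD4 had log2 fold changes of 0.33 and 0.34.

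ENSG00000272980 was the lncRNA with the smallest p among those lower at 48 h. It lies on chr6:166999336-167139138, plus strand, in 18 exon blocks over the genes CEP43 (a centrosomal protein) and CCR6 (a chemokine receptor), and GENCODE 44 types it as protein-coding. It was at 86.1, 67.4 and 99.6 CPM with DMSO and at 25.5, 55.2 and 41.5 with Molidustat at 24 h. In the 48 h libraries it was at 119, 335 and 104 with DMSO and at 48.1, 25.3 and 39.8 with Molidustat. Every Molidustat library was below every DMSO library.

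The log2 fold changes of ENSG00000272980 were -1.04 at 24 h (edgeR adjusted p = 0.872) and -2.28 at 48 h (SE 0.46, edgeR adjusted p = 0.0613), and without DMSO 48 h replicate 2 the 48 h value was -1.57 (edgeR adjusted p = 0.0594; DESeq2 adjusted p = 0.00359). The coding gene that moved with it was CCR6, at -1.26 and -2.48 (-1.72 without that library), with a count ratio of 1.05 to 1.69. CEP43, at -0.25 and -0.50 (-0.65), did not keep its ratio, which ran from 0.607 to 2.44.

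Groups that did not overlap, in the same direction, at both times were seen in 4 higher and 3 lower lncRNAs, or 1.28% and 0.958% of the 313, against a background of 2.2% and 0.813% of all genes tested. Without DMSO 48 h replicate 2 they were seen in 9 and 4, against 3.03% and 1.63%. Besides ENSG00000287093, STARD4-AS1 and ENSG00000272980, the 7 included 4 others. ENSG00000214719, on chr17:30576464-30672789, had log2 fold changes of 1.29 and 1.44, and PDCD6IP-DT of 1.09 and 1.02. NCK1-DT, divergent from the gene of an adaptor protein, had -0.67 and -1.06. The 48 h values of these 3 without DMSO 48 h replicate 2 were 1.51, 0.64 and -0.58. ENSG00000243960, on the strand of the methylosome gene WDR77, had -0.71 and -1.43, and WDR77 itself -0.76 and -1.0, with 48 h values of -1.48 and -1.13 without that library. None of the 4 was called by edgeR over all libraries or without DMSO 48 h replicate 2, while DESeq2 called ENSG00000243960 at 48 h in both cases (adjusted p = 0.00978 and 0.0206). At 48 h, groups did not overlap for 31 higher and 27 lower lncRNAs (background 9.96% and 8.02%), and without DMSO 48 h replicate 2 for 48 and 33 (13.7% and 15.4%).

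Other lncRNAs near the top of the ranking had separate groups at 1 time only and passed no test. KRT10-AS1, opposite the keratin gene KRT10, was at 15.7, 14.9 and 18.4 CPM with DMSO 48 h and 42.7, 42.9 and 28.4 with Molidustat 48 h, a log2 fold change of 1.2 (edgeR adjusted p = 0.203). SNHG30, a small nucleolar RNA host, was at 43.9, 49.3 and 34.3 with DMSO 24 h and at 27.6, 3.03 and 13.8 with Molidustat 24 h, a log2 fold change of -1.55 (edgeR adjusted p = 0.842). Both comparisons had groups that did not overlap. The 24 h change of KRT10-AS1 was 0.47 and the 48 h change of SNHG30 was 0.36 (-0.03 without DMSO 48 h replicate 2), with overlapping groups.

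LncRNAs linked to hypoxia elsewhere, from a list of 31 names, included 7 of the 313, and 0 of these 7 were called by edgeR or DESeq2 at either time. Of the 15 names on the list that were tested, edgeR called 1 at each time, MIR210HG, which lies outside the 313 and is described below. At an unadjusted p under 0.05, 2 of the 15 were higher and 0 lower at 24 h (background 3.73% and 1.52%). At 48 h 1 of the 15 was higher and 1 lower (4.53% and 8.81%), or 1 and 0 without DMSO 48 h replicate 2 (3.7% and 3.01%). Of the 7, none was higher or lower at 24 h, and 1, FTX, was lower at 48 h. Without DMSO 48 h replicate 2, 0 of the 7 were lower at 48 h. A count of 0 or 1 of 7 is no result about the list. The median log2 fold change of the 7 was 0.23 at 24 h and -0.49 at the later time, or 0.20 without DMSO 48 h replicate 2. UCA1 was the largest at 24 h, with 15.6, 8.47 and 6.61 CPM against 17.2, 22.9 and 18.3, and a log2 fold change of 0.93 (SE 0.67). Its 24 h groups did not overlap and its 48 h groups did, where its log2 fold change was 0.19, or -0.22 without DMSO 48 h replicate 2. MALAT1 ran from 1153 to 2251 CPM over the 12 libraries, with log2 fold changes of 0.23 and 0.41. NEAT1 had 0.15 and -0.49, GAS5 -0.10 and -1.13, CYTOR -0.10 and -0.49, FTX 0.73 and -1.77, and ZNF561-AS1 0.29 and 0.88. The 48 h values of these 6, MALAT1 first, were 0.31, 0.20, -0.15, 0.49, -0.04 and 0.98 without DMSO 48 h replicate 2, so the sign turned for NEAT1 and CYTOR, as for UCA1. In DMSO 48 h replicate 2, FTX stood at 230 CPM against 22.4 and 32 in the other DMSO 48 h libraries.

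Larger differences were found among lncRNAs outside the 313. MIR210HG held 12, 0 and 2 counts in the DMSO 24 h libraries and 112, 257 and 214 with Molidustat, and at 48 h 50, 9 and 117 against 338, 193 and 389. Its log2 fold changes were 5.00 (SE 0.64, edgeR adjusted p = 0.00112) and 3.02 (SE 0.54, edgeR adjusted p = 0.0275). It missed the count rule through its low DMSO 24 h counts. PDK1-AS1, antisense to the pyruvate dehydrogenase kinase gene PDK1, held 0 counts in all 3 DMSO 24 h libraries and 43, 60 and 22 with Molidustat, at least 35.4-fold higher when the DMSO group is set to a floor of 3 counts in all (edgeR adjusted p = 0.036). UPK1A-AS1 was called at 48 h and had a log2 fold change of 3.59 (edgeR adjusted p = 0.00765). EdgeR called 2 lncRNAs outside the 313 at each time, so PDK1-AS1 was not called at 48 h, nor UPK1A-AS1 at 24 h.

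The promoters of MIR210HG and PDK1-AS1 are shown beside that of SAP30-DT for the same letters. MIR210HG has ACGTG at -170 and GCGTG at -9. PDK1-AS1 has GCGTG on the opposite strand at -221 and -87, and a palindrome CACGTG that reads as ACGTG on both strands, at -158 and -157.
MIR210HG promoter, chr11:568408-568707, minus strand: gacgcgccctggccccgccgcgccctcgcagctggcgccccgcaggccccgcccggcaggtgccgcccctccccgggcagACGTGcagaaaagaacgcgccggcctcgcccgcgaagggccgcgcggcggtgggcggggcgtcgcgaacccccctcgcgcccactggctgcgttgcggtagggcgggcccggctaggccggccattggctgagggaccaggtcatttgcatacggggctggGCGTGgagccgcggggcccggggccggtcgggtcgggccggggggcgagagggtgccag
PDK1-AS1 promoter, chr2:172556415-172556714, minus strand: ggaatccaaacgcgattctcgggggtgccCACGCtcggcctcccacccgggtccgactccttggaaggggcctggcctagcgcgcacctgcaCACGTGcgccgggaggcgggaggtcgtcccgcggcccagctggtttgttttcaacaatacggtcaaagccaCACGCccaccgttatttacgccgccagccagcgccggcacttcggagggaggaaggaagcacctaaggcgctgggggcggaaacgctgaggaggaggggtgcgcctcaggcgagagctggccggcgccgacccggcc

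These letters are common in promoters. Of 35116 RefSeq promoter windows of the same length, 21.4% held ACGTG on either strand, 36.5% held GCGTG and 48.4% held at least 1 of them. Among the 143 of the 313 lncRNAs that matched an entry, the shares were 28.7%, 53.1% and 67.1%. A match is a description of the letters, and ENSG00000287093 had no entry.

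Grouped by kind and by name, the 313 held no call beside ENSG00000287093 by edgeR over all libraries at either time, and DESeq2 called none of the small nucleolar RNA or microRNA hosts. They contained 17 of 33 small nucleolar RNA hosts, with a median log2 fold change of 0.00 at 24 h and -0.26 at 48 h, and -0.14 at 48 h without DMSO 48 h replicate 2. Of the 17, 1 was lower at 24 h and 3 at 48 h at an unadjusted p under 0.05, where the background was 1.52% and 8.81%, and 0 at 48 h without that library, against 3.01%. SNHG29 was at 739, 1228 and 2631 CPM with DMSO 24 h and at 1397, 1393 and 1814 with Molidustat 24 h. At 48 h it was at 518, 5579 and 1368 against 831, 711 and 889. The groups overlapped at both times.

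Of 84 microRNA hosts, 6 were among the 313, with a median of -0.40 at 24 h and of -0.78 at 48 h (-0.14 without DMSO 48 h replicate 2), and at an unadjusted p under 0.05 the count lower at 48 h was 1, and 0 without that library, against 8.81% and 3.01% of all genes. MIR122HG, the host of the liver microRNA miR-122, had log2 fold changes of -0.56 and -0.22 (-0.26) with overlapping groups at both times. DLEU2 had -0.60 and -0.84 (-0.61). Of 8 liver-enriched lncRNAs, HULC was the only one tested, at -0.32 and 0.78 (0.50). Values in brackets are those at 48 h without DMSO 48 h replicate 2. By name, the 68 -AS transcripts had medians of 0.01 and -0.14, the 35 -DT transcripts 0.15 and -0.03, and the 30 LINC transcripts 0.13 and -0.08. Without that library the 48 h medians of all 3 kinds were above 0, at 0.22, 0.16 and 0.11. The 122 known by an Ensembl ID only had 0.14 and -0.52, the latter -0.12 without DMSO 48 h replicate 2. In that group 5 were higher and 39 lower at 48 h at an unadjusted p under 0.05, against 4.53% and 8.81% of all genes tested. Without that library 5 and 8 were, against 3.7% and 3.01%.

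Lists of paraspeckle genes and of the genes that degrade RNA also held no call by edgeR or DESeq2. In the paraspeckle list, 18 genes were tested, among them the lncRNAs NEAT1 and MALAT1, with 0 higher and 0 lower at 24 h and 0 higher and 3 lower at 48 h at an unadjusted p under 0.05, against 3.73% and 1.52% of all genes at 24 h and 4.53% and 8.81% at 48 h. In the fit without DMSO 48 h replicate 2, 1 was lower at each time, against 2.87% and 3.01%. Of 18 genes of nuclear RNA decay, 4 were lower at 24 h at that level, against 1.52% of all genes tested, and 1 at 48 h, against 8.81%. Without that library 5 were lower at 24 h, against 2.87%, and 2 at 48 h, against 3.01%. Their medians were -0.33 at 24 h and -0.03 at 48 h, or -0.14 at 48 h without it, where 15 of the 18 lay below 0. The 4 at 24 h, named after their values were seen, were ZCCHC8 at -1.44, EXOSC9 at -1.01, EXOSC5 at -0.86 and EXOSC2 at -0.77. Of 14 genes of nonsense-mediated decay, 0 reached that level at either time, which with so few genes is close to the shares over all genes given above.

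Between the times, edgeR called none of the 313. For 48 h against 24 h in DMSO the background was 0.0% of all genes higher and 0.00701% lower, and without DMSO 48 h replicate 2 it was 0.0% and 0.014%, again with 0 of the 313 called. DESeq2 called 2 higher and 0 lower over all libraries (background 0.252% and 0.0576%) and limma-voom called 0 (0.0% and 0.014%). The unadjusted p was under 0.05 for 53 higher and 1 lower, against 6.76% and 1.38% of all genes. Without DMSO 48 h replicate 2 these were 3 and 6, against 2.78% and 1.15%. Groups did not overlap for 21 higher and 20 lower, against 5.75% and 6.19%, and without that library for 30 and 39, against 13.4% and 9.84%. The larger count on the higher side at an unadjusted p was thus seen with replicate 2 and not without it.

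For 48 h against 24 h in Molidustat, edgeR called 0 of the 313, against 0.0% of all genes in each direction, and 0 without DMSO 48 h replicate 2, against 0.014% in each direction. DESeq2 and limma-voom called 0 over all libraries, against 0.0351% higher and 0.0251% lower with DESeq2 and 0.0% and 0.00701% with limma-voom. DESeq2 without DMSO 48 h replicate 2 called 0 higher and 3 lower, ENSG00000261604, ENSG00000260257 and ENSG00000225339, against 0.295% and 0.307%. The unadjusted p was under 0.05 for 6 higher and 6 lower, against 2.39% and 2.19%, and without DMSO 48 h replicate 2 for 9 and 23, against 4.36% and 4.98%. Groups did not overlap for 16 higher and 30 lower, against 7.15% and 6.79%. The test of the difference between the Molidustat effects at 48 h and 24 h called 0 of the 313 by each of the 3 tools (background 0.0% in each direction, or 0.00354% and 0.0106% with DESeq2). Its unadjusted edgeR p was under 0.05 for 3 higher and 41 lower, against 1.18% and 5.6%, and for 1 and 6 without DMSO 48 h replicate 2, against 1.09% and 1.88%.

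OLMALINC had the smallest p for time in DMSO. It is an intergenic lncRNA on chr10:100373099-100454043, plus strand, 8273 bp from SCD, the stearoyl-CoA desaturase gene. It was at 160.8, 110.6 and 107.0 CPM in DMSO 24 h and at 237, 799.5 and 333 in DMSO 48 h. Molidustat libraries were at 112, 160.7 and 137 at 24 h and at 235, 160.0 and 234 at 48 h. The DMSO groups did not overlap, also without replicate 2. The log2 fold change was 1.85 over all libraries and 1.2 without that library (edgeR adjusted p = 0.541 and 0.479; DESeq2 adjusted p = 0.0157 and 0.0338).

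BACE1-AS, opposite the beta-secretase gene BACE1, was at 6.89, 3.85 and 4.54 CPM in DMSO 24 h and at 14, 82 and 14.6 in DMSO 48 h. The groups did not overlap. The log2 fold change was 2.77 with replicate 2 and 1.5 without it (edgeR adjusted p = 0.541 and 1.0). ENSG00000248101 and DHRS4-AS1 led the higher side for time in Molidustat, at 1.0 and 1.40. MIR22HG, the host of miR-22, was at 19, 14.2 and 11.3 CPM in Molidustat 24 h and at 5.39, 8.15 and 5.07 in Molidustat 48 h, a log2 fold change of -1.27 (edgeR adjusted p = 1.0). Its groups did not overlap.

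The spread between replicates was compared with that of coding genes under the same count rule. Over all levels, the median coefficient of variation of CPM was 29.8% against 23.4% in DMSO 24 h, 34.9% against 29.3% in Molidustat 24 h and 29.1% against 22.0% in Molidustat 48 h. In DMSO 48 h it was 60.8% against 38.5%, and 16.9% against 12% over the 2 libraries left without replicate 2. At like mean levels the gap in DMSO 24 h, Molidustat 24 h and Molidustat 48 h was smaller than this or turned. For 47 lncRNAs and 178 coding genes at 4 to 8 CPM it was 32.4% against 33.1% in DMSO 24 h, 43.7% against 40.1% in Molidustat 24 h and 33.8% against 35.5% in Molidustat 48 h. Between 8 and 16 CPM (107 lncRNAs and 1262 coding genes) the same values were 38.7% against 34.8%, 40.6% against 38.3% and 37.4% against 32.9%. At 64 CPM and above (43 and 3093) they were 19.1% against 17.5%, 25.1% against 25.4% and 19.3% against 16%. In DMSO 48 h the lncRNAs were above the coding genes at each level, with 63.4% against 60.0% at 4 to 8 CPM and 70.1% against 35.3% at 32 to 64 CPM.

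DMSO 48 h replicate 2 differed from its group to an extent that varied with the position of the lncRNA. Its log2 ratio to the other DMSO 48 h libraries had a median of 0.82 over the 313, with 147 above 1 and 60 below -1. These ratios use TMM-scaled CPM, with a factor of 0.629 for replicate 2 against 1.08 and 1.06 for replicates 1 and 3. The small factor raises every ratio of replicate 2 alike, so the medians and counts depend on the scaling. Coding genes under the same rule had a median of -0.31, with 18.8% above 1 and 28.4% below -1. The median was 1.15 for the 150 lncRNAs in the opposite-strand class, 1.93 for the 12 that lay within 5 kb without overlap, 0.51 for the 71 that overlapped a coding gene on its strand, 0.52 for the 53 more than 5 kb away and -0.10 for the 26 divergent ones. It was 1.36 for the 122 with an Ensembl ID only and 0.61 for the 191 with a symbol. Between the other DMSO 48 h libraries, replicate 1 against replicate 3, the median was -0.18, with 10 lncRNAs above 1 and 24 below -1.

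**Figure D4:**
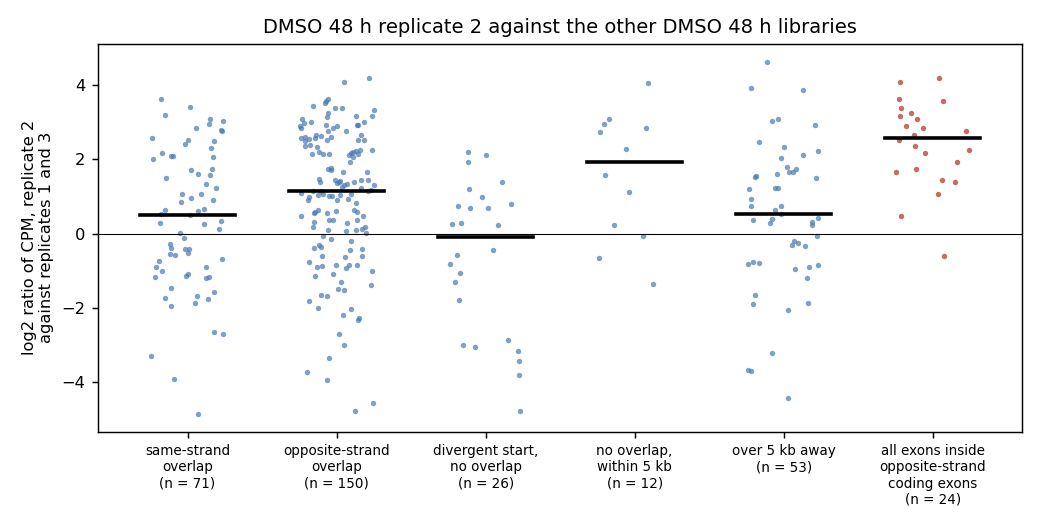
Log2 ratio of DMSO 48 h replicate 2 to the other DMSO 48 h libraries (vertical axis), 1 point per lncRNA, by position relative to coding genes; lines are medians. The medians run from -0.10 for divergent lncRNAs without overlap to 2.58 for the 24 that lie wholly inside opposite-strand coding exons.

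The 24 lncRNAs whose exons lie wholly inside opposite-strand coding exons were the furthest out. Their median was 2.58, and 22 of 24 were above 1. The coding genes opposite them were also raised, with a median of 2.21 over the 23 tested and 15 above 1. Together these 24 held 6.44 to 17.3% of the counts of the 313 in the 11 libraries and 26.9% in DMSO 48 h replicate 2. ENSG00000261604, opposite HMGCS1 on chr5:43287601-43290839, plus strand, was at 364, 6599 and 712 CPM in the 3 DMSO 48 h libraries. The ratio between its counts and those of HMGCS1 was 0.216 to 0.362 in the 11 libraries. In replicate 2 it was 0.323, inside that range.

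ENSG00000260257 shows what 1 library did to a fold change. It lies on chr20:32856621-32858751, plus strand, as 1 exon block 172 bp from EFCAB8. It was at 58.7, 1031 and 66.1 CPM in DMSO 48 h and at 46.7, 40.8 and 27.1 in Molidustat 48 h. Its log2 fold change at 48 h was -3.32 with DMSO replicate 2 and -0.73 without it (edgeR adjusted p = 0.165 and 0.763).

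Where lncRNA and coding exons overlap, the counts can be set against each other. On the same strand there were 86 pairs of 59 lncRNAs with a tested coding gene. Across these pairs the 24 h log2 fold changes of lncRNA and gene had a Pearson r of 0.69, with the same sign in 70 and a difference of at most 0.25 in 58. At 48 h r was 0.41, and 0.57 without DMSO 48 h replicate 2. On opposite strands there were 173 pairs of 141 lncRNAs. There r was 0.18 at 24 h, with the same sign in 96 and a difference of at most 0.25 in 64, and at 48 h r was 0.44, falling to 0.25 without DMSO 48 h replicate 2. These are descriptions across pairs, which share libraries and could share reads. For 99 divergent pairs with starts within 1 kb, r at 24 h was 0.09.

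**Figure D5:**
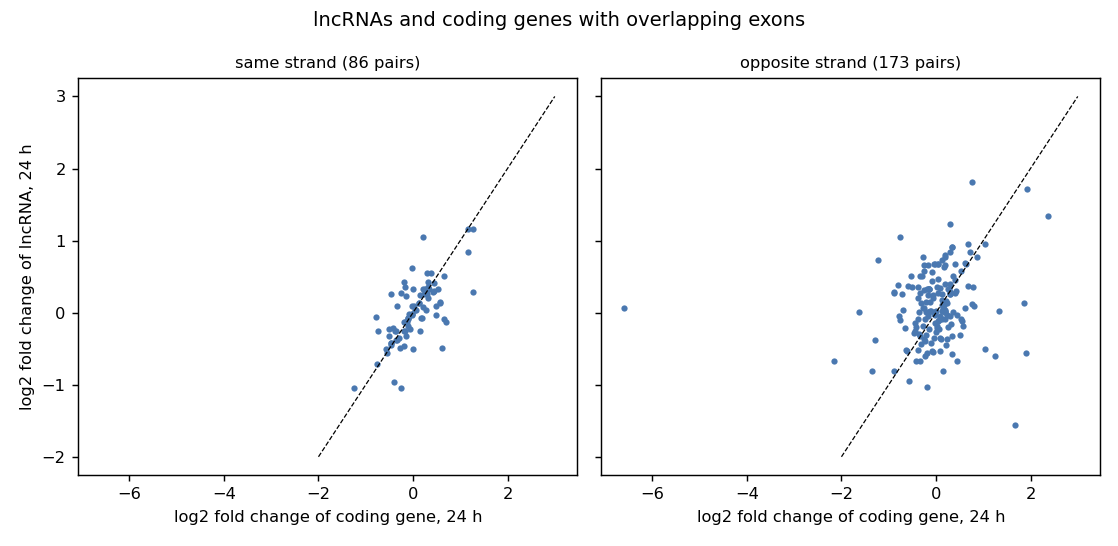
Log2 fold change of Molidustat against DMSO at 24 h of the coding gene (horizontal axis) and of the lncRNA whose exons overlap it (vertical axis). There are 86 same-strand and 173 opposite-strand pairs, and the dashed line marks equal values. Same-strand pairs gather along the line (r = 0.69) and opposite-strand pairs do so less (r = 0.18).

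For 1 pair the counts lay within 5% of each other in each of the 11 libraries. The ratio of ENSG00000264772 (chr17:7572826-7582024, 12 exon blocks) to EIF4A1 was 0.999 to 1.02 in the 11 libraries and 0.945 in DMSO 48 h replicate 2. Other ratios were steady at another value. That of ENSG00000265257 to NDUFV2 was 0.738 to 0.799, and that of ENSG00000230551 to CSNK1A1 was 0.620 to 0.821. A coefficient of variation of the ratio under 20% was seen in 40 same-strand pairs (35 lncRNAs) and in 15 opposite-strand pairs (15 lncRNAs). A steady ratio says that the counts were proportional, and whether reads were shared was not tested.

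Other pairs came apart. ENSG00000279738 had 1.01 to 1.13 counts per count of EIF3L, a subunit of a translation initiation factor, in the 11 libraries and 3.68 in DMSO 48 h replicate 2. ENSG00000269968, opposite GAPDH, the glycolytic enzyme, had a 24 h log2 fold change of 1.34 (edgeR adjusted p = 0.880), and GAPDH had 2.38 (edgeR adjusted p = 0.122; 0.0026 without DMSO 48 h replicate 2). Its counts were 0.00139 to 0.0118 of those of GAPDH. ENSG00000267458 opposite CALR had a ratio from 0.356 to 1.16.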

How the data were processed

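The authors made 3′ libraries from Huh7 cells with a QIAseq UPX kit and, per the labels, deposited 1 file of gene counts per library. The submitters' processing notes name bcl2fastq 2.17.1.14, cutadapt 1.9.1, STAR 2.7.9a, HTSeq 0.11.2, DESeq2 1.26.0 and GRCh38. The annotation release, the strand and overlap settings of counting and any use of molecular identifiers are not given in the sources used here. The 5 summary lines of each file were left out of library sizes and tests.

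Counts of all 60666 genes were filtered with edgeR 4.0.16 (minimum count 10, minimum total 15), which left 14274, scaled with TMM factors and tested with quasi-likelihood tests over all 12 libraries, with Benjamini-Hochberg adjustment over all genes tested. The fit without DMSO 48 h replicate 2 tested and adjusted over 15253 genes. Its background shares in the Results are over the 14274. Its shares in the closing section on processing are over the 15253. Calls needed a log2 fold change beyond 1 and an adjusted p under 0.05. DESeq2 1.42.0, limma-voom 3.58.1, other scalings and filters, thinning, and leaving out each library were tried as alternatives in R 4.3.3. The fit was tested on simulated data.

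The lncRNAs and lists were chosen with earlier results of these data known. Named genes were those called, the 10 most abundant, those with the smallest p in each direction (4 for treatment, 2 for time), those on the hypoxia list, those beside the count limit, their coding neighbours, and at most 6 called lncRNAs outside the rule. ENSG00000258757 and the pairs with GAPDH and EIF3L, ZCCHC8, EXOSC9, EXOSC5, EXOSC2, PDCD6IP-DT, NCK1-DT, HULC, MIR122HG and DLEU2 were named after their values were seen. Positions came from GENCODE 44 (GRCh38) and promoters from RefSeq (GRCh38.p14). Same-numbered replicates were checked for shared deviations: over 18 pairs the correlation had a median of 0.015, and 3 were above 0.1, so the numbers were not taken to pair the libraries.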

Additional observations from a re-analysis of the deposited data

Results flagged for a closer look

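ENSG00000272030, opposite the mRNA export gene CHTOP on chr1:153631438-153634397, minus strand, had opposite differences with time in DMSO and in Molidustat. Its log2 fold change for 48 h against 24 h was 1.78 in DMSO (0.78 without DMSO 48 h replicate 2) and -0.62 in Molidustat, with every library of each 48 h group on that side of its 24 h group. It was at 8.50, 8.09 and 11.8 CPM in DMSO 24 h, at 17.4, 70.3 and 14.8 in DMSO 48 h, at 10.0, 8.74 and 10.0 in Molidustat 24 h and at 4.72, 6.86 and 7.14 in Molidustat 48 h. The test of the difference itself gave a log2 value of -2.40 (SE 0.80, edgeR adjusted p = 0.728) and -1.40 without DMSO 48 h replicate 2 (edgeR adjusted p = 1.0), so the difference did not pass.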

How the results depend on the processing

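No called value changed direction under the alternatives run. At 24 h, edgeR called 1 to 4 of the 313 lncRNAs as each library was left out, with 4 only without DMSO 48 h replicate 2, where DESeq2 also called 4. Without that library the share of all genes called was 0.761% of 15253 with edgeR and 1.48% of 16164 with DESeq2. EdgeR called 2 with no filter on low counts (0.373% of all genes), 2 with the groups fitted alone (0.441%), and 0 (0.199%) when at least 10 counts were required in every library, which removes ENSG00000287093. At 48 h the leave-one-out counts ran from 1 to 26, with 26 (25 lower) without DMSO 48 h replicate 1, 12 (11 lower) without replicate 3 and 1 without replicate 2, where 2.19%, 1.33% and 0.347% of all genes were called. DESeq2 called 17 (15 lower; 2.52% of all genes), limma-voom 6 (2 lower, 1.95%), DESeq2 without DMSO 48 h replicate 2 called 4 (1.2%), no filter gave 43 (42 lower, 2.69%), thinning to the smallest total gave 2 (0.321%), and the groups fitted alone (0.0535%) or at least 10 counts in every library (0.199%) gave 0. For time in DMSO the counts were 2 with DESeq2 (0.31%), 1 with DESeq2 without DMSO 48 h replicate 2 (0.226%) and 28 with no filter (1.41%). For time in Molidustat DESeq2 without that library called 3 (0.602%). For the interaction no filter gave 21 (1.13%). The cause of these differences was not tested. With a replicate block the numbers of the 313 called were 1, 1, 0, 0 and 0, as without it. Over all genes the block moved the share called from 0.231% to 0.21% at 24 h and from 0.231% to 0.154% at 48 h. Requiring 20 counts left 185 lncRNAs. Without the 3 most abundant of the 313, the lncRNA share was 1.74% (mean of 11 libraries) and 3.28% in DMSO 48 h replicate 2, and the share of the 313 was 1.24% and 2.41%. The median coefficient of variation in DMSO 48 h was 16.9% without replicate 2. Over all alternatives, 3360 values of 37 named lncRNAs held 104, none of them called, whose direction turned, 55 that became calls and 1 that was lost, ENSG00000287093 at 48 h with the groups fitted alone. The interaction needs all 4 groups and was not fitted on pairs of groups. The median SE of a log2 fold change over the 313, which limits what could be called, was 0.58 at 24 h and 0.59 at 48 h, and 0.47 and 0.52 without DMSO 48 h replicate 2.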
